A study of Mus musculus with 2 samples.

Results

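Nuclear and small nucleolar RNA (snoRNA) host long noncoding RNAs were described in the livers of 2 newborn mice. The set of 9 named genes held the nuclear RNAs Malat1 and Neat1 and the snoRNA hosts Gas5, Snhg1, Snhg3, Snhg5, Snhg6, Snhg8 and Snhg12. Members were found by matching each symbol to its Ensembl identifier in the deposited tables. Of the 9, 7 matched a row among the 43346 Ensembl genes, with 58 transcript rows between them. Snhg1 and Snhg8 matched none, and their levels were not analysed here; only their annotated snoRNAs and promoter windows were.

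The samples formed 1 group of 2 littermates of strain B6NCrl at age 0 days, with no transgene, treatment or second condition in the labels, and the sex of the pups was not collected. Each library came from 1 whole liver and started from 10 ng of total RNA longer than 200 nt. A difference between pups is a difference between 2 animals with 1 library each. It has no replicate check, and an exact sign permutation over 2 livers cannot go below p = 0.5, so levels and differences are given as measured, with the SD over the 2 livers and no test.

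As background, Malat1 is an abundant RNA of nuclear speckles, bodies that store splicing factors. Neat1 is the scaffold of paraspeckles, which hold RNA-binding proteins; its long form is the one that builds them. The 3′ ends of Malat1 and of long Neat1 are not made by the usual polyadenylation: RNase P cuts upstream of a small tRNA-like RNA, and the end left behind is closed by a triple helix of U-rich and A-rich stretches. The snoRNA hosts work differently. Their introns carry snoRNAs, the guides that direct modification and processing of ribosomal and other RNAs, and many of the spliced host RNAs are short-lived because nonsense-mediated decay removes them during translation.

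The triple-helix stretches are shown first because they set both nuclear RNAs apart from polyadenylated transcripts. Sequences are from the GENCODE M21 transcripts on GRCm38, 5′ to 3′, on the minus strand of chromosome 19. Capitals mark TTTCTTTT, TTTTGCTTTT and the A-rich tract.

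Malat1-201, bases 6592 to 6691, chr19:5795982-5796081: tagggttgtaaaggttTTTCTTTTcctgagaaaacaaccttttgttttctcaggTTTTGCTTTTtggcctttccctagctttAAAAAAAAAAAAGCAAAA
Neat1-201, bases 20672 to 20771, chr19:5824708-5824807: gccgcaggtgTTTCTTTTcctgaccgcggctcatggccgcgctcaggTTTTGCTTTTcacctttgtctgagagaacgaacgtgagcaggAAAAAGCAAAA

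The letters TTTTGCTTTT occurred 1 time in each of these transcripts, and TTTCTTTT 3 times in each. The A-rich tract was 18 bases long in Malat1-201 and 11 in Neat1-201. It closed the annotated end of Neat1-201, whereas 292 annotated bases followed it in Malat1-201. Directly after the end of Neat1 lay Gm27702, a small-RNA row of 56 bases with an effective length of 0 and 0 reads in both livers. The short form of Neat1 ended differently. Its last 60 bases held 1 AATAAA, the polyadenylation signal, in capitals here, 14 bases before the annotated end; the last 60 bases of Neat1-201 held 0.

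Neat1-202, bases 2945 to 3004, chr19:5842307-5842366: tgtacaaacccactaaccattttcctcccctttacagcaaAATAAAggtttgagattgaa

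Levels are given as TPM, a relative abundance per unit of length that adds to the same total in each library, so they can be compared between genes. All 7 RNAs were above 1 TPM in both livers. Together they held 0.192% ± 0.0278 of TPM (SD, n = 2) and 0.0802% ± 0.0102 of expected counts. The total was 2118 TPM in pup 1 and 1724 TPM in pup 2, and most of it was Malat1. The 5 snoRNA hosts summed to 437 TPM in pup 1 and 457 TPM in pup 2.

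For Malat1 (chr19:5795690-5802672, minus strand, lincRNA), pup 1 had 1648 TPM and pup 2 had 1241 TPM, from 25284 and 19494 expected counts. The mean was 1444 ± 288 TPM, rank 79 among all Ensembl genes and rank 2 among 5694 long noncoding genes. The deposited credible interval, the authors' estimate of read-assignment and counting error whose level is not given, was 1601 to 1643 TPM in pup 1 and 1203 to 1240 TPM in pup 2. In both livers the deposited TPM lay just above the upper bound. Gm42418, with 4581 TPM in pup 1 against 4722 in pup 2, was the higher long noncoding gene by mean level. H19, the imprinted RNA of fetal liver, had 1274 TPM in pup 1 against 1324 in pup 2. It followed Malat1 by mean level and in pup 1, but lay above Malat1 in pup 2.

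This level rested almost wholly on a short transcript. Malat1-203, a spliced form of 485 nt with 2 exons, held 99.3% of the gene's TPM in pup 1 and 99.1% in pup 2. All 485 of its bases lie inside the unspliced Malat1-201, within the first 757 of its 6983 bases. The estimated reads came to 58209 per kb of effective length of Malat1-203 in pup 1 and 44050 in pup 2. On Malat1-201 they came to 409 and 360 per kb. By expected counts, which are not divided by length, Malat1-201 held 11.1% of the gene in pup 1 and 12.7% in pup 2. All of these values rest on the deposited read assignment. Read coverage and reads over the junction were not available here to check it. The junction that tells the forms apart is shown with the unspliced sequence at the same place; capitals mark the bases after the shared exon, and the junction sequence does not occur in Malat1-201.

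Malat1-203, chr19:5801937-5802267 across an intron of 271 bases: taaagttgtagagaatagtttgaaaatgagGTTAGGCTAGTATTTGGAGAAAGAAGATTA
Malat1-201, chr19:5802208-5802267: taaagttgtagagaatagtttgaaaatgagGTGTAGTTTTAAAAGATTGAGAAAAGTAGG

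The place of Malat1 among the 7 RNAs depends on which transcript takes the reads. With all of its reads placed on the 6983 nt of Malat1-201, an alternative chosen after seeing the data, Malat1 came to 103 TPM in pup 1 against 79.1 in pup 2. It then lay below Gas5, by -1.67 ± 0.30 on the log2 scale, instead of above it by 2.32 ± 0.32. An opposite-strand row of unknown coding status, Gm37376 (chr19:5801941-5802393), overlaps 182 bases of Malat1-203 and took 5258 expected counts in pup 1 and 4178 in pup 2. The sources used here do not state whether counting used strand, so reads of Malat1 and Gm37376 may not be told apart. Adding them to Malat1, also an alternative chosen after seeing the data, raised its mean level to 1748 TPM.

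Neat1 (chr19:5824708-5845478, minus strand, lincRNA), whose annotated span begins 22035 bases beyond that of Malat1, had 33.1 TPM in pup 1, against 26.1 in pup 2. The credible intervals were 31.5 to 33.8 TPM and 24.8 to 26.8 TPM. Its mean of 29.6 ± 4.91 TPM gave it rank 32 among long noncoding genes. Malat1 was above Neat1 by 5.60 ± 0.05 on the log2 scale, 48.6-fold, and by 4.25 when the reads of each were placed on its longest transcript.

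The short form, Neat1-202 of 3004 nt, held 95.6% of the gene's TPM in pup 1 and 95.7% in pup 2. Its level was 31.6 TPM in pup 1 against 25.0 in pup 2. The long form, Neat1-201 of 20771 nt, had 0.950 TPM in pup 1 against 0.620 in pup 2. Its 696 and 459 expected counts were 17.5% and 14.9% of the gene's counts. Its credible intervals, 0.857 to 1.01 TPM and 0.552 to 0.673 TPM, did not overlap, and it was 1.53-fold lower in pup 2 by TPM without an added constant. The forms overlap at the 5′ end, so the split between them is the authors' estimate. The small rows Gm27505 and Gm28006 inside Neat1 held at most 21.1 counts in either liver.

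**Figure D1:**
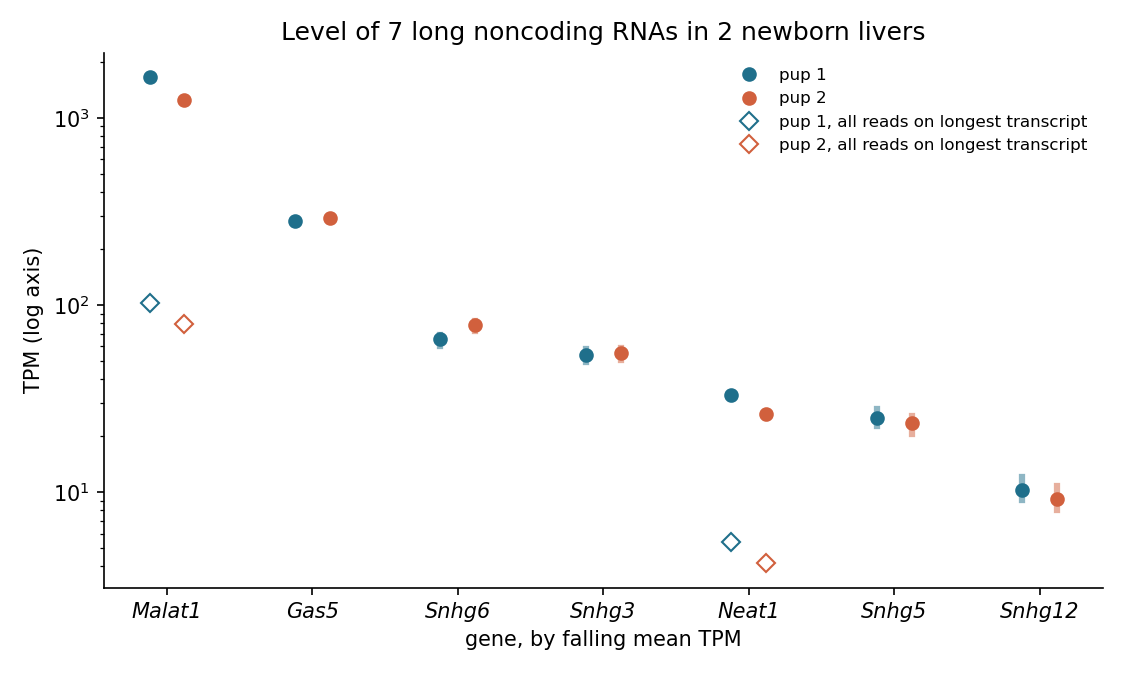
TPM of the 7 RNAs in each liver on a log axis, with bars for the deposited credible intervals (filled points), and the TPM of Malat1 and Neat1 if all their reads lay on the longest transcript (open diamonds). Malat1 leads at 1648 and 1241 TPM as deposited, and at 103 and 79.1 TPM it lies below Gas5.

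Gas5 (chr1:161034422-161038539, plus strand), a host whose spliced RNA is known to accumulate when growth stops, was the highest snoRNA host. Pup 1 had 282 TPM and pup 2 had 292 TPM, and the credible intervals of 271 to 288 TPM and 281 to 298 TPM overlapped. Its log2 ratio to the median of Snhg3, Snhg5, Snhg6 and Snhg12 was 2.86 ± 0.04, a 7.28-fold higher level. Snhg6 (chr1:9941959-9944118, minus strand) followed, with 65.5 TPM in pup 1 against 78.0 in pup 2. Snhg3 (chr4:132348014-132353686, minus strand) was at 54.1 and 55.1 TPM. Snhg5 (chr9:88521050-88522929, minus strand) was at 25.0 and 23.4 TPM, and Snhg12 (chr4:132308623-132311024, plus strand) was lowest, at 10.2 and 9.13 TPM. The spans of Snhg12 and Snhg3 lie 36989 bases apart on chromosome 4.

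In the order of levels, each RNA was above the next in both livers. Gas5 was above Snhg6 by 2.00 ± 0.14, Snhg3 above Neat1 by 0.89 ± 0.26 and Snhg5 above Snhg12 by 1.33 ± 0.05 on the log2 scale, each more than 3 SD from 0. The step from Snhg6 to Snhg3 was 0.39 ± 0.16 and that from Neat1 to Snhg5 was 0.28 ± 0.17. Both were within 3 SD, so by that rule these neighbours were not separated beyond their spread. The TPM ranges over the 2 livers did not overlap in either step, but in pup 2 the credible intervals of Neat1 and Snhg5 did. Counts of Snhg12 were 211 in pup 1 and 187 in pup 2, the thinnest of the set.

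The hosts differed in how many transcripts shared their level. Gas5 had 25 transcript rows, of which 16 reached 1 TPM in both livers. Gas5-224 (502 nt, 12 exons) held 38.1% of the gene's TPM in pup 1 and 39.4% in pup 2, and Gas5-210 (557 nt, 11 exons) held 34.5% and 36.0%. Gas5-210 starts 96 bases upstream and lacks an exon of 41 bases, chr1:161037124-161037164. That exon is printed in capitals between 20 bases of each neighbouring exon.

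Gas5-224, transcript bases 199 to 279: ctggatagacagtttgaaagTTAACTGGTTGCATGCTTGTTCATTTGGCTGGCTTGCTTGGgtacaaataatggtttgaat

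Transcripts typed as retained intron, 20 of the 25 rows of Gas5, held 26.5% of it in pup 1 and 23.7% in pup 2. In Snhg5, where 3 of 8 rows are of this type, they held 48.9% and 47.9%. Types are those of GENCODE M21, in which some other Snhg5 rows have none. Snhg5-206, 1 of the 3, held 20.6% in pup 1 and 18.2% in pup 2 and has a different length there. Over all transcripts of the libraries the retained-intron share was 5.89% and 5.78% of TPM. That share includes genes without such a row, so it depends on the annotation too. Snhg3, Snhg6 and Snhg12 had no row of this type. Snhg5 was also the most divided host, with 23.0% and 24.8% in its leading transcript, Snhg5-203. Its transcript Snhg5-201 held 19.2% in pup 1 and 0% in pup 2, while a pair of other transcripts that were at 0 or nearly so in pup 1 held 11.7% and 5.23% in pup 2, so single forms of Snhg5 are uncertain at its depth of 599 and 511 counts.

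Snhg3-204 held 85.0% and 86.6% of Snhg3, and Snhg12-206 held 68.7% and 71.1% of Snhg12. Snhg6-203 held 53.6% of Snhg6 in pup 1 and 62.5% in pup 2. The leading transcript was the same in both livers for all 7 genes.

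**Figure D2:**
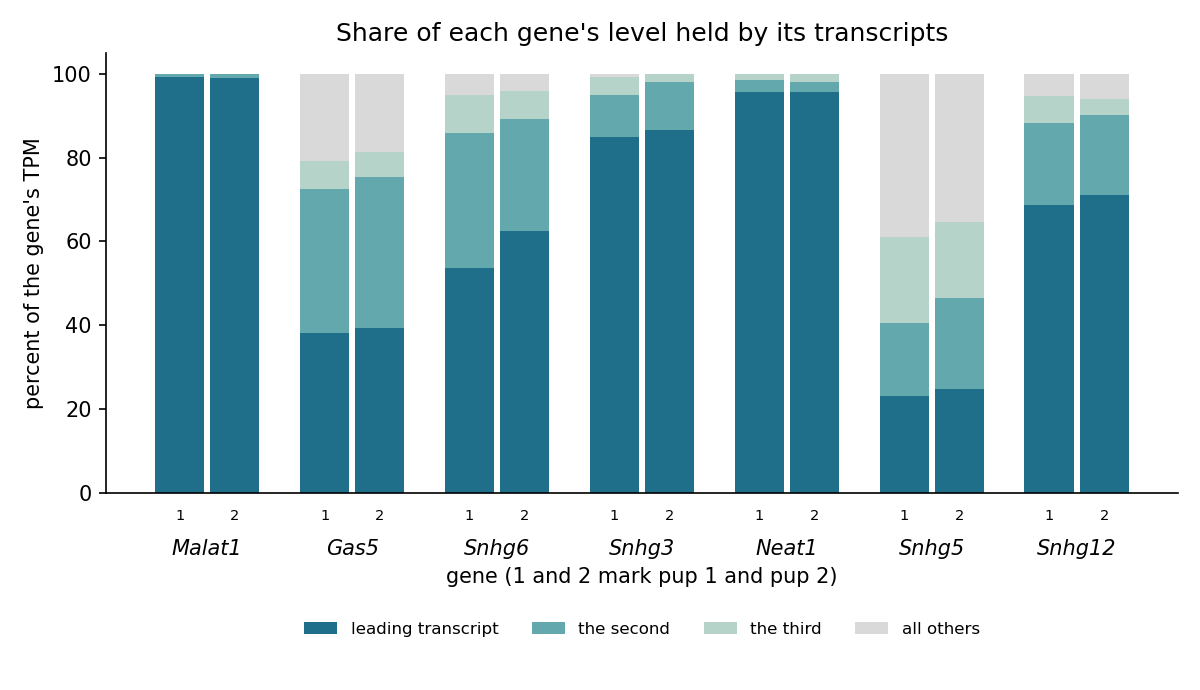
Percent of each gene's TPM held by its leading transcript, the next 2 and all others, in each liver (bars marked 1 and 2 are pup 1 and pup 2). The leading transcripts of Malat1 and Neat1 hold 99.3% and 95.6% of TPM in pup 1, whereas that of Snhg5 holds 23.0%. TPM is per unit of length. By expected counts the long forms hold 11.1% of Malat1 and 17.5% of Neat1 in pup 1.

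Some of these rows share bases with other genes. Snhg3 shares 5592 bases with the span of Rcc1 on the same strand, and Rcc1, the exchange factor of the GTPase Ran, had 22.4 TPM in pup 1 against 18.6 in pup 2. Gas5 overlaps Zbtb37 by 428 bases on the opposite strand, and Snhg6 overlaps Mcmdc2 by 127. Both partners were below 2 TPM. Gm17300 overlaps Snhg3 by 1611 bases on the opposite strand and was at 2.34 and 2.59 TPM. Levels of Snhg3 are uncertain to the extent that reads were divided with Rcc1 or Gm17300.

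The snoRNAs themselves were largely out of reach. Within the 7 hosts, Snhg1 and Snhg8 included, 29 snoRNA genes are annotated on the host's strand, and 27 of them had a row. Of these, 20 had an effective length of 0, because they are no longer than the 99 bases taken off each length, and so could hold no reads. Of the other 7, 5 had reads, together 16.8 counts in pup 1 and 12.6 in pup 2. Snora73b in Snhg3 had 13.0 and 6.13 counts, Snord22 in Snhg1 had 2.76 and 0.360, and Snora24 in Snhg8 had 1.00 and 4.00. Snora16a had 0 and 2.00 counts and Snora61 0 and 0.110, both in Snhg12. These sums stand against 5196 and 5242 counts for Gas5 alone. RNA of 200 nt or less was removed before library construction, per the labels, and most of these snoRNAs are shorter.

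A few are printed to show what the introns carry. C/D box snoRNAs hold a C box near the 5′ end and a D box near the 3′ end, and H/ACA snoRNAs end a few bases after ACA. Capitals mark ATGATGA or GTGATGA within the first 25 bases, the last CTGA within the final 20 bases, or ACA.

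Snord47 in Gas5, chr1:161038082-161038158: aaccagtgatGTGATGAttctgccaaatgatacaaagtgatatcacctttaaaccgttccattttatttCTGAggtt
Snord87 in Snhg6, chr1:9942463-9942549: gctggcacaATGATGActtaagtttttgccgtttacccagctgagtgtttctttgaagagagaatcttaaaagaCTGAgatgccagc
Snord50a in Snhg5, chr9:88521529-88521600: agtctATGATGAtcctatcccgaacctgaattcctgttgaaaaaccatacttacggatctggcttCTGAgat
Snord50b in Snhg5, chr9:88521797-88521868: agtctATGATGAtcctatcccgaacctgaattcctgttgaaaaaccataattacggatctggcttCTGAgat
Snord99 in Snhg12, chr4:132310691-132310764: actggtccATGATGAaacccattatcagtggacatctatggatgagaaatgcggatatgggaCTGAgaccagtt
Snora24 in Snhg8, chr3:123507937-123508066: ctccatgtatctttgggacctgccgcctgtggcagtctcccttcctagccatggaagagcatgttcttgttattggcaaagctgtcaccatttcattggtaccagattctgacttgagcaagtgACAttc

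The 29 annotations include 2 overlapping ones each for Snord80 and Snora16a, of which 1 each had a row. Of the 22 annotations not named Snora, 17 held both letter patterns in these places and all 22 held the CTGA. Of the 7 named Snora, 6 held the ACA. Gas5 carried 10 of the 29, Snhg1 carried 8 and Snhg12 carried 5.

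RefSeq promoter windows on GRCm38.p6 matched 7 of the 9 genes, with 2 windows for Gas5 and none for Neat1 and Snhg6. TATAAA or TATATA between 40 and 16 bases before the start was found on the sense strand in 4 of the 7 windows of snoRNA hosts. The share among all 32851 promoters was 2.73%, and 1.51% on the opposite strand. TATATA reads the same on both strands, and 3 of the 8 windows with Malat1 included matched on the opposite strand. Among 19 promoters of protein-coding snoRNA hosts, 5.26% held these letters on the sense strand. A C followed by at least 5 pyrimidines, the kind of run that opens mRNAs of the translation machinery, was found between 10 bases before and 15 after the start in 3 of the 7, against 18.5% of all promoters and 31.6% of those of protein-coding hosts. On the opposite strand it was in 0 of the 8 windows and in 21.0% of all promoters. These windows do not overlap each other. Gas5, Snhg12 and Snhg8 held both and are printed from 50 bases before the start to 40 after it, with both matches in capitals.

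Gas5, chr1:161035116-161035205, plus strand: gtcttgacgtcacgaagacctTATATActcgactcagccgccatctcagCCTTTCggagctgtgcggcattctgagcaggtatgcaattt
Snhg12, chr4:132308628-132308717, plus strand: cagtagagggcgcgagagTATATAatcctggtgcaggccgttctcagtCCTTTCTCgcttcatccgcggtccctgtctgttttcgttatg
Snhg8, chr3:123508297-123508386, minus strand: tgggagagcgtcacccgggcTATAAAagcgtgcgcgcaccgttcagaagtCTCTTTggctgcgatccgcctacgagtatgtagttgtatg

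Between the littermates, the nuclear RNAs were lower in pup 2 and Snhg6 was higher. No member met the rule for a difference, at least 1.5-fold with credible intervals apart: 0 of 7, against 1.46% of 12711 genes at a mean of 1 TPM or more. Credible intervals alone were apart for 3 of the 7, against 20.1% of all genes. Of these, 2 were lower in pup 2, as were 13.8% of all genes, and 1 was higher, as were 6.27%. Log2 ratios are of TPM + 1, pup 2 over pup 1, and a constant of 1 understates changes of low genes.

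Malat1 had a log2 ratio of -0.41, 1.33-fold lower in pup 2. Of 118 other genes within 2-fold of its level, 1 was as far apart. Neat1 had a log2 ratio of -0.33, 1.27-fold lower, and 5.85% of the 3093 other genes near its level were as far apart. Snhg6 had a log2 ratio of 0.25, 1.19-fold higher in pup 2, as did 7.20% of genes near its level in either direction. The higher level of Snhg6 lay in Snhg6-203, with 35.1 TPM in pup 1 against 48.8 in pup 2 and intervals of 30.3 to 39.6 and 43.1 to 53.5, while Snhg6-204 was at 21.1 and 20.8 TPM.

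Gas5, at 0.05, Snhg3, at 0.03, Snhg5, at -0.09, and Snhg12, at -0.15, had overlapping intervals. The median log2 ratio was -0.0898 over the 7 RNAs and -0.0509 over all 12711 genes, of which 63.0% were lower in pup 2. Scaling to the spike-in RNAs, which held only 163 counts in pup 1 and 190 in pup 2, moved the median of all genes to -0.26. Under it Malat1 passed 1.5-fold, at -0.65, and 6 of the 7 RNAs were lower in pup 2 instead of 4.

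**Figure D3:**
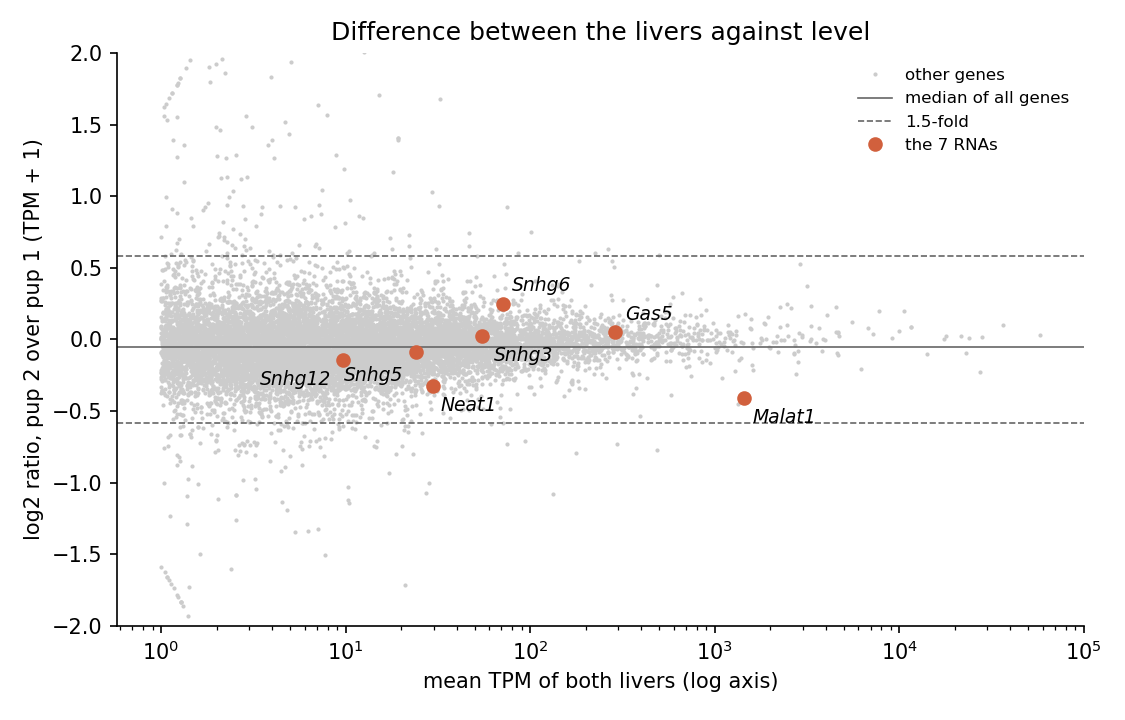
Log2 ratio of TPM + 1, pup 2 over pup 1, against mean TPM on a log axis for genes at a mean of 1 TPM or more (grey; 64 genes lie outside the axis) and the 7 RNAs (orange). Malat1 at -0.41 lies at the lower edge of genes of its level, and no member crosses the 1.5-fold lines.

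The livers also differed in other tissues' markers. The labelled tissue was borne out by its defining markers: the 6 hepatocyte genes Apoa1, Alb, Afp, Ttr, Fgb and Serpinc1 summed to 56461 TPM in pup 1 against 55903 in pup 2. All 6 skeletal muscle markers, Acta1, Myl1, Tnnc2, Mylpf, Ckm and Tnnt3, were at least 1.5-fold higher in pup 2, with a sum of 50.2 TPM in pup 1 and 758 TPM in pup 2, and Acta1 at 16.3 and 310 TPM. All 6 pancreas markers, Ctrb1, Clps, Cela2a, Ins2, Cel and Cpa1, were higher by the same rule, with sums of 1.96 and 100 TPM, and Ins2 and Cel at 0 in pup 1. The 5 erythroid markers, led by Alas2 at 389 and 402 TPM, the 5 macrophage markers, led by Lyz2 at 508 and 492 TPM, and the 5 endothelial markers, led by Egfl7 at 46.8 and 43.8 TPM, had median log2 ratios of -0.09, -0.07 and -0.09. The part of admixed tissue in the differences of Malat1, Neat1 and Snhg6 was not tested, and in bulk RNA fewer cells of a type and less RNA per cell cannot be told apart.

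RNAs that encode proteins of the bodies that Malat1 and Neat1 mark were measured in the same libraries. All 16 listed nuclear speckle genes were detected, and 15 were lower in pup 2, against 63.0% of all genes. Intervals were apart for 9 of them, all lower, against 13.8% of all genes. Intervals separate more readily at high counts, and no share among genes of like level was computed for this or the other lists. They were also apart for 8 of 25 protein-coding snoRNA hosts, 6 lower and 2 higher. All 6 hepatocyte markers had them apart, 3 lower and 3 higher. The median log2 ratio of the speckle genes was -0.17 against -0.05 for all genes, and none met the 1.5-fold rule. Srsf2, a splicing factor of the SR family, had 266 TPM in pup 1 against 257 in pup 2. Srsf5 was at 237 and 216 TPM, Srsf3 at 189 and 184 TPM, and Srrm2, a core protein of speckles, at 103 and 106 TPM.

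Of 15 paraspeckle genes, all were detected, 12 were lower in pup 2, against 63.0% of all genes, and the median log2 ratio was -0.11. Intervals were apart for 6, of which 5 were lower and 1 higher, against 20.1% of all genes. Hnrnpk was at 347 and 322 TPM, Ewsr1 at 138 and 127 TPM and Hnrnpa1 at 123 and 102 TPM. Of 12 genes for processing and binding of the Malat1 end, mostly subunits of RNase P, 11 were detected, with no intervals apart. Pop5 was at 51.1 and 53.7 TPM, Rpp21 at 48.4 and 46.5 TPM, Pop7 at 24.3 and 24.0 TPM, Rpp30 at 19.4 and 17.9 TPM and Rpp25 below 1 TPM. Rpph1, the RNA of RNase P, was at 107 and 106 TPM, and Rn7sk, a nuclear RNA that restrains transcription elongation, at 173 and 164 TPM. Rmrp, the RNA of a related enzyme, had 21.9 and 10.0 counts, and Terc, the telomerase RNA, 3 and 6.

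Other hosts and the machinery around the snoRNAs were as follows. Of 15 other noncoding hosts, 10 had a row, 9 reached 1 TPM in both livers and the median level was 12.8 ± 0.223 TPM. Snhg20 was at 37.7 and 37.0 TPM, Zfas1 at 32.6 and 31.6 TPM, Epb41l4aos at 20.2 and 20.0 TPM and Snhg15 at 20.8 and 14.4 TPM, while Snhg11 was below 1 TPM in both. Intervals were apart for 3, against 20.1% of all genes, Snhg15 and Snhg17 lower and Rian higher in pup 2; the latter pair was named after its values were seen. Snhg17 was at 13.3 and 8.61 TPM, 1.54-fold lower, and Rian at 7.18 and 10.9 TPM, 1.52-fold higher by TPM alone. With the added constant of 1, neither met the 1.5-fold rule, and no other gene of the list did. The 25 protein-coding hosts, mostly ribosomal protein genes, had a median of 310 ± 3.64 TPM, near the level of Gas5. Tpt1 led them at 775 and 830 TPM, followed by Rpl13a at 752 and 796 TPM and Rps2 at 752 and 714 TPM.

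All 15 genes of snoRNP proteins and their assembly were detected, with a median log2 ratio of -0.03. Intervals were apart for 3, all lower in pup 2, against 13.8% of all genes: Snu13, and, named after their values were seen, Dkc1 at 40.1 and 27.8 TPM and Ruvbl2 at 29.0 and 23.1 TPM. Nop10, of the H/ACA particle, was at 113 and 112 TPM. Snu13, Nop56 and Nop58, core proteins of the C/D particle, were at 94.7 and 85.8, 79.7 and 69.2, and 72.2 and 70.5 TPM. All 14 genes of nonsense-mediated decay were detected too, at a median log2 ratio of -0.07 and with overlapping intervals for every gene. Eif4a3, Magoh and Rbm8a, of the exon junction complex, were at 110 and 103, 59.2 and 57.5, and 23.9 and 23.6 TPM, and Upf3a was at 17.1 and 18.8 TPM.

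**Figure D4:**
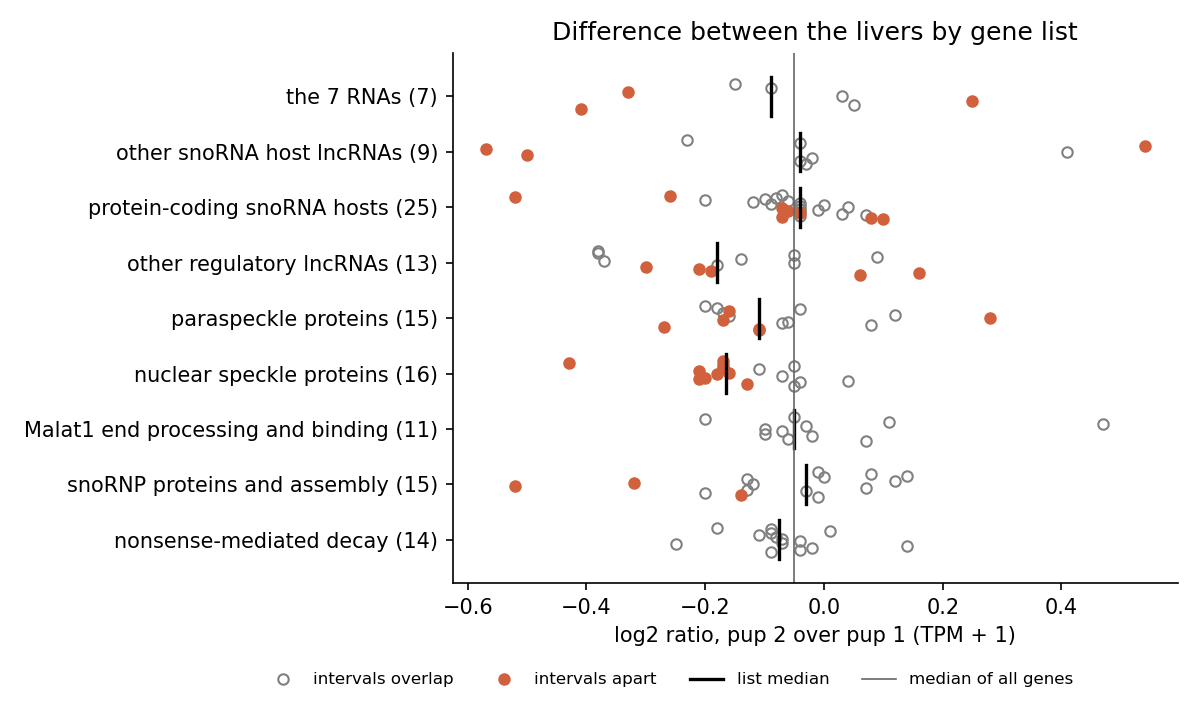
Log2 ratio of TPM + 1, pup 2 over pup 1, for genes of 9 lists at a mean of 1 TPM or more (numbers in brackets); filled points have credible intervals apart, black bars are list medians and the grey line is the median of all genes. The other regulatory long noncoding RNAs, with a median of -0.18, and the nuclear speckle list, with -0.17, lie lowest relative to that line.

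Of 17 other regulatory long noncoding RNAs, 16 had a row and 13 were detected. Of these 13, 10 were lower in pup 2, against 63.0% of all genes, and the median log2 ratio was -0.18. Intervals were apart for 5, of which 3 were lower and 2 higher, against 20.1% of all genes. H19 led, followed by the imprinted Meg3 at 47.1 and 52.8 TPM, 1700020I14Rik at 30.0 and 26.2 TPM and Mir22hg, the host of a microRNA, at 23.3 and 19.9 TPM. Kcnq1ot1, an imprinted silencing RNA, Lncpint and Miat were below 1 TPM. Outside the lists, the long noncoding genes nearest in level to Malat1 were Gm26917, at 1138 and 1219 TPM, Gm42418 and 1810058I24Rik. Nearest to Gas5 were 1810058I24Rik, at 159 and 175 TPM, Gm10076, at 154 and 155 TPM, and Cct6a, at 120 and 113 TPM. Cct6a, a chaperonin subunit gene, counts here only because the annotation types it as a processed transcript. Likeness was the distance over log2(TPM + 1) in 2 livers, so it compares levels only.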

How the data were processed

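Total RNA of 2 newborn livers was sequenced, giving 42124582 expected counts in pup 1 and 41443673 in pup 2. The deposited expected counts are estimated reads of a gene or transcript and need not be whole; they were rounded only to compute scaling factors. TPM, posterior mean TPM and FPKM were deposited by the authors, normalized by effective length and library total. Credible bounds of TPM (a signal per gene) and the percent of a gene's TPM held by each transcript were also deposited by the authors. The assembly was mm10 and the annotation GENCODE M4, per the file headers; no source used here names the aligner or counter. Symbols, spans, exons and transcript names came from GENCODE M21 on the same assembly, matched by identifier; 42462 of 43346 Ensembl rows matched. Members and gene lists were chosen with earlier results of these data known.

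Levels are means ± SD over 2 livers, which measure the spread between these littermates. A level difference between genes was called beyond the spread when both livers were on 1 side and the mean log2 ratio was over 3 SD from 0. Between livers, the rule was a mean TPM of at least 1, at least 1.5-fold on TPM + 1, and credible bounds apart. It was tried on simulated counts with intervals of counting error only, so the deposited bounds and differences between animals were not covered. Named genes were all members and, of each other list, the 4 highest, those meeting the rule and those below 1 TPM in both livers. Of the marker lists fewer are printed here. Some genes that the rule names are not reported here. Alternatives were posterior means, FPKM, rescaled totals, a pseudocount of 0.1, a 2-fold threshold, no minimum TPM, spike-in scaling, TMM factors (edgeR 4.0.16) and median-ratio factors (DESeq2 1.42.0) in R 4.3.3. The rest used Python 3.11.15, pandas 2.3.3 and NumPy 2.4.6. Intervals cover counting and read assignment only.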

Additional observations from a re-analysis of the deposited data

How the results depend on the processing

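No paired analysis was possible because the samples form 1 group. The order of the 7 RNAs kept all 6 of its steps under posterior mean TPM. FPKM and rescaled totals scale all genes of a library alike, and each RNA was above the next in both livers. Neither these scalings nor leaving out a liver could therefore change the order. With all reads of Malat1 and Neat1 on their longest transcripts it kept 4: Gas5 came first and Neat1 last. The members' share of TPM then became 0.0543%, and the log2 ratio of Malat1 over Neat1 4.25. Adding the opposite-strand counts of Gm37376 to Malat1 gave 0.223% and 5.88. In single livers the share was 0.172% to 0.212%, Malat1 over Neat1 5.57 to 5.64 and Gas5 over the Snhg median 2.83 to 2.89. Spike-in scaling gave 1 member at least 1.5-fold apart, Malat1, and a median log2 ratio of -0.32; the cause was not tested, and all genes moved by a like amount, to -0.26. Relative to all genes Malat1 was at -0.36 as reported and at -0.39 under that scaling. Of 39 planned recomputations of the principal results, 37 were labelled unchanged. That label meant an equal count, a value within the spread or, for detection, a total within 1.5-fold. Many could not have come out otherwise. With 2 livers, leaving 1 out always stays within the SD of a share or ratio. Scaling a whole library leaves ratios within a liver unchanged, and a higher threshold cannot raise a count of 0. Genes called numbered 186 as reported, 468 under spike-in scaling, 284 with a pseudocount of 0.1, 527 under TMM and 524 under median ratios, the latter pair without the interval criterion. Depth limits Snhg12 and the forms of Snhg5, and snoRNAs of effective length 0 cannot be measured.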
